A study of Danio rerio with 19 samples.

Results

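Claudins are membrane proteins that line up in strands at tight junctions, where they close or tune the gap between neighbouring cells of an epithelium or endothelium. Some members seal that gap and others form pores for ions, and most tissues use a combination of several. In zebrafish the family includes older lettered genes (cldna, cldnb and so on) beside genes numbered after mammalian counterparts. The claudin genes described here are the rows of the deposited expression table whose gene name begins with cldn in either case, leaving out names that begin with cldnd. That rule gave 35 genes among the 31953 in the table, and all 35 were followed across 19 libraries.

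The libraries were made from zebrafish embryo cells separated by fluorescence, in a study of the pharyngeal arches, the embryonic bars that form the jaw and gill skeleton. The arch population carried both fli1a:GFP and sox10:DsRed and came from wild-type embryos at 36 hours post fertilisation (hpf) in 3 libraries, called all-arch here. Control cells with GFP alone (fli1a-only, labelled as mixed and vasculature, 36 hpf, 3 libraries) and with DsRed alone (sox10-only, labelled as mixed and ear, 3 libraries) were wild type. The sample labels put the 3 sox10-only replicates at 20, 28 and 36 hpf, while the series text describes these controls as replicates isolated alongside the arch cells.
Further wild-type arch cells at 36 hpf were sorted with a hand2 marker and sox10 (hand2 sort, 2 libraries) or a dlx5a marker and sox10 (dlx5a sort, 1 library), and the titles of these 3 libraries do not name fli1a. Cells with both fli1a and sox10 reporters also came, at 36 hpf, from genotyped edn1-/- embryos (2 libraries), genotyped jag1b-/- and jag1b+/+ embryos (1 library each), and heat-shocked hspGal4 embryos with UASEdn1, with UASNICD or with neither UAS transgene (1 library each). UASEdn1 drives the arch signal Endothelin 1 and UASNICD the active intracellular part of Notch. The reporters mark cells wherever their promoters are active, so each sort can hold several cell types, and no label states how many embryos were pooled or whether replicates were separate clutches.

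The deposited values are TPM, a transcript level per gene length relative to the rest of the same library. Sequencing depth is not kept in such values and is unknown. In bulk RNA, fewer cells of a type and less RNA per cell cannot be told apart. Genes of the labels followed them in part. hand2 was at 25346 and 34428 TPM in the hand2 sorts against 639 to 856 TPM in all-arch. edn1 was at 20.9 TPM under UASEdn1 against 1.37 TPM in its Gal4 control. The jag1b gene was at 5.85 TPM in the mutant and 31.6 TPM in its wild-type control. The dlx5a gene was at 1530 TPM in the dlx5a sort and 555 to 893 TPM in all-arch, but at 1595 and 1065 TPM in the hand2 sorts. The fli1a gene was at 11.2 to 41.3 TPM in fli1a-only, not above the 41.6 to 44.5 TPM of all-arch. In the edn1 mutants edn1 was at 0 and 0.246 TPM, but all-arch cells held only 0.136 to 0.549 TPM, so the level there checks little. The summed level of 7 arch neural crest markers was 2740 to 4863 TPM in all-arch, 750 to 978 TPM in fli1a-only and 153 to 290.1 TPM in sox10-only. Globin genes took 22.7% to 61.5% of the fli1a-only TPM and at most 1.37% of any other library, which lowers the TPM of other genes there. To compare these 3 populations, limma was fitted to log2(TPM + 1) for 14270 genes with a mean of at least 1 TPM, with Benjamini-Hochberg adjustment over all of them, and a gene is called at an adjusted p under 0.05. A log2 difference on that scale understates the change of genes near or below 1 TPM.

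Most claudins were low in every population. Of the 35, 10 reached 1 TPM in no library, among them the cldn10 genes (cldn10a, cldn10b and cldn10l2, whose mammalian relative forms ion pores in the kidney), CLDN18, cldn7a and cldnk. At the other end, 14 reached 10 TPM in at least 1 library and 7 reached 100 TPM: cldnb, cldna, CLDN22, cldnj, cldn5b, cldn5a and cldn11a. Only 5 were at 1 TPM or more in all 19 libraries, namely cldn5a, cldn5b, cldn11b, cldn12 and cldnb, and of these only cldn5a stayed at 10 TPM or more throughout. The summed claudin level was 1005 to 5672 TPM in sox10-only, 1759 TPM in the dlx5a sort, 385 to 1471 TPM in fli1a-only, 334 to 523 TPM in all-arch and 189 to 262 TPM in the hand2 sorts. A different gene led each population: cldn11a was the highest claudin in all 3 all-arch libraries, cldn5b in all 3 fli1a-only libraries and cldnb in all 3 sox10-only libraries.

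**Figure D1:**
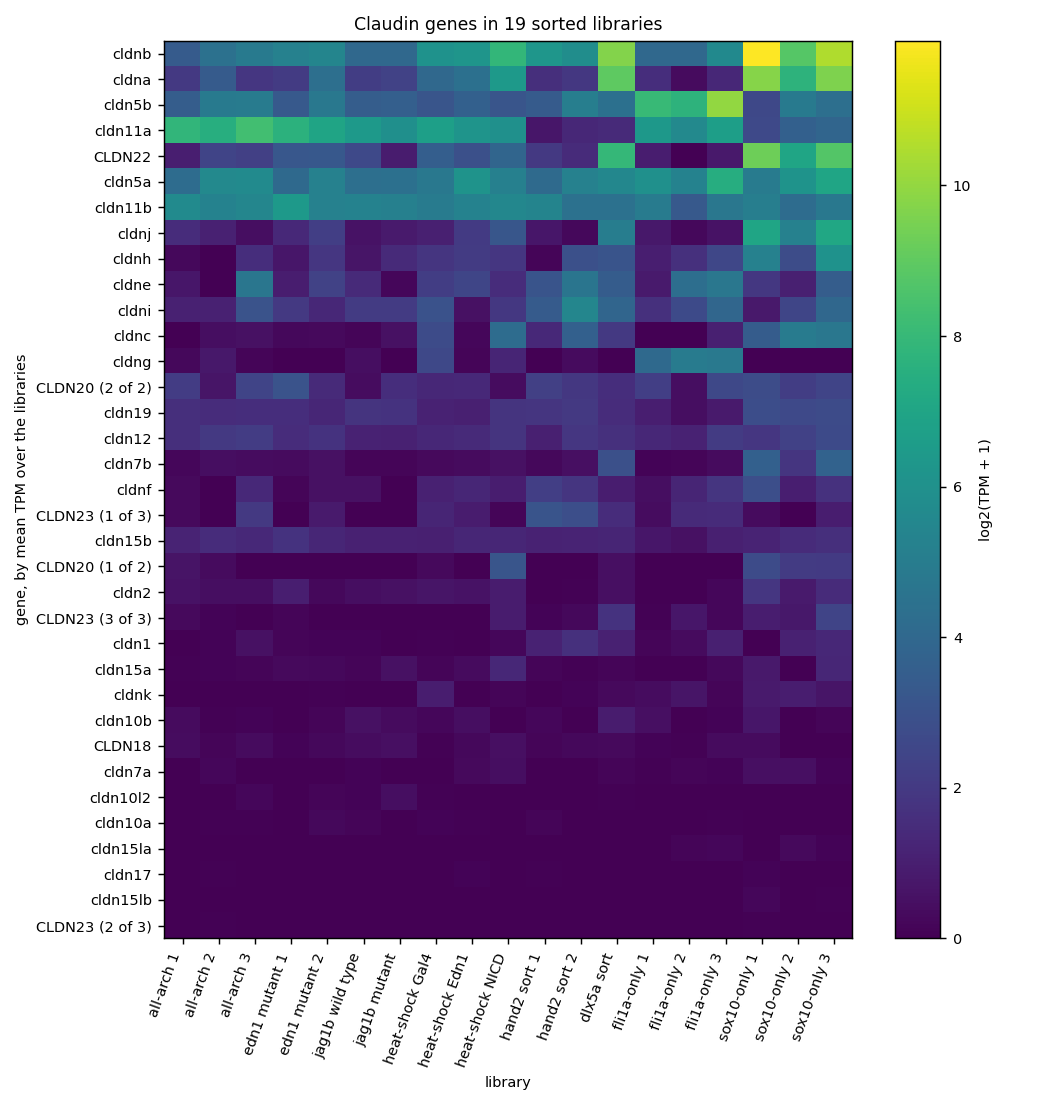
Levels of the 35 claudin genes (rows, ordered by mean level) in the 19 libraries (columns), as log2(TPM + 1) in colour. cldnb, cldna, CLDN22 and cldnj were brightest in the sox10-only and dlx5a libraries, cldn5b in fli1a-only, and cldn11a in all-arch and the edn1 mutants. In the other libraries sorted on both fli1a and sox10, the cldn11a levels overlapped those of fli1a-only.

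The largest claudin levels of the series were those of cldnb, a gene known in zebrafish from the migrating lateral line primordium and other epithelia. It stood at 3879.75, 440.4 and 1435 TPM in sox10-only replicates 1 to 3 (labelled 20, 28 and 36 hpf), at 9.80, 20.8 and 28.0 TPM in all-arch, and at 15.4, 15.6 and 50.3 TPM in fli1a-only. Every sox10-only library was above every library of the other 2 populations, and the highest was the 20 hpf library. The mean was 1918 ± 1769.95 TPM (SD, n = 3) in sox10-only and 19.5 ± 9.15 TPM (SD, n = 3) in all-arch, 98.2-fold apart, with a log2 difference of -6.15 ± 0.77 (SE) for all-arch against sox10-only and a limma adjusted p of 0.000386.

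Its companion cldna was at 860.5, 208 and 778 TPM in sox10-only, 2.91, 9.79 and 2.68 TPM in all-arch and 1.93, 0.273 and 1.52 TPM in fli1a-only. These groups did not overlap either, and all-arch was lower by a log2 difference of -6.59 ± 0.61 (SE, limma adjusted p = 3.44e-05). CLDN22, which the reference table calls cldn26, was at 633, 127 and 418 TPM in sox10-only against 1.02, 4.51 and 3.72 TPM in all-arch and 0.944, 0 and 0.740 TPM in fli1a-only. Its all-arch against sox10-only difference was -6.43 ± 0.59 (SE, limma adjusted p = 2.94e-05), so the mean sox10-only level was 127-fold the all-arch level.

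The zebrafish gene cldnj is known to be needed for normal otolith formation in the ear. It was at 129, 37.1 and 136 TPM in sox10-only and at 0.372 to 1.84 TPM in all-arch, with 0.180 to 0.709 TPM in fli1a-only. The all-arch against sox10-only difference was -5.43 ± 0.49 (SE, limma adjusted p = 1.93e-05). In cldnb, cldna, CLDN22 and cldnj alike the 28 hpf library was the lowest of the 3, so their levels did not follow the labelled stage in order, and with 1 library per stage no test of stage was possible.

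Another 5 members were called higher in sox10-only than in both other populations at lower levels. cldnh (cldn3c in the reference table) was at 37.0, 5.89 and 67.3 TPM in sox10-only against 0.213, 0 and 1.94 TPM in all-arch. cldnc (cldn3d in the reference table) was at 10.1, 30.4 and 25.7 TPM in sox10-only against 0 to 0.444 TPM in all-arch and 0 to 1.06 TPM in fli1a-only. The last 3 were cldn7b, whose mammalian relative CLDN7 lies along the sides of epithelial cells, cldn19, whose mouse relative is known in Schwann cells and kidney, and CLDN20 (1 of 2). cldn7b stood at 11.6, 2.63 and 12.5 TPM in sox10-only and below 0.4 TPM in the other 6 libraries. cldn19 was at 6.08, 5.19 and 5.54 TPM in sox10-only, 1.87 to 2.04 TPM in all-arch and 0.351 to 0.995 TPM in fli1a-only. CLDN20 (1 of 2) was at 5.55, 3.18 and 3.12 TPM in sox10-only and was listed at 0 in all 3 fli1a-only libraries.

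These 9 made up the claudins called lower in all-arch than in sox10-only, 9 of 20 tested, where 10% of all tested genes were called in that direction. The same 9 were called lower in fli1a-only than in sox10-only, a comparison with the same sox10-only libraries, in which 24.4% of all genes were called lower. Scaled by median of ratios, 8 claudins and 8.76% of all genes were called lower there, and with globin genes left out 8 and 8.68%. The median claudin difference was -1.002 for all-arch against sox10-only, beside -0.04 over all genes, and -0.74 for fli1a-only against sox10-only, beside -0.78 over all genes. The calls rest on the family members that passed the expression filter, and 15 of the 35 did not pass it. Over all-arch and fli1a-only together, cldnc, cldn7b, cldnj and CLDN20 (1 of 2) averaged under 1 TPM. They passed the filter only through sox10-only, where they were high, and cldng passed only through fli1a-only. The claudin counts include these genes, so they cannot be weighed against the share over all genes.
The calls of cldnh, cldn19 and CLDN20 (1 of 2) leaned on single libraries or on the settings. The cldnh call against all-arch was lost without sox10-only replicate 1, with a limma adjusted p of 0.0638. Against fli1a-only, cldnh was at -2.98 ± 0.82 (SE, limma adjusted p = 0.0287) and lost its call without sox10-only replicate 1 or 3 and without fli1a-only replicate 1 or 2. It was also lost with a pseudocount of 0.1, under median-of-ratios or quantile scaling and with globin genes left out, with adjusted p up to 0.0965 over all these. The cldn19 call against all-arch (-1.16 ± 0.28, SE, limma adjusted p = 0.0130) was lost without all-arch replicate 2 or 3 and with a pseudocount of 0.1. It was also lost with the 36 hpf library as the only sox10-only sample. CLDN20 (1 of 2) kept its calls wherever it was tested. It fell below the expression filter, and so was not tested, without sox10-only replicate 1 and with the 36 hpf library as the only sox10-only sample.

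**Figure D2:**
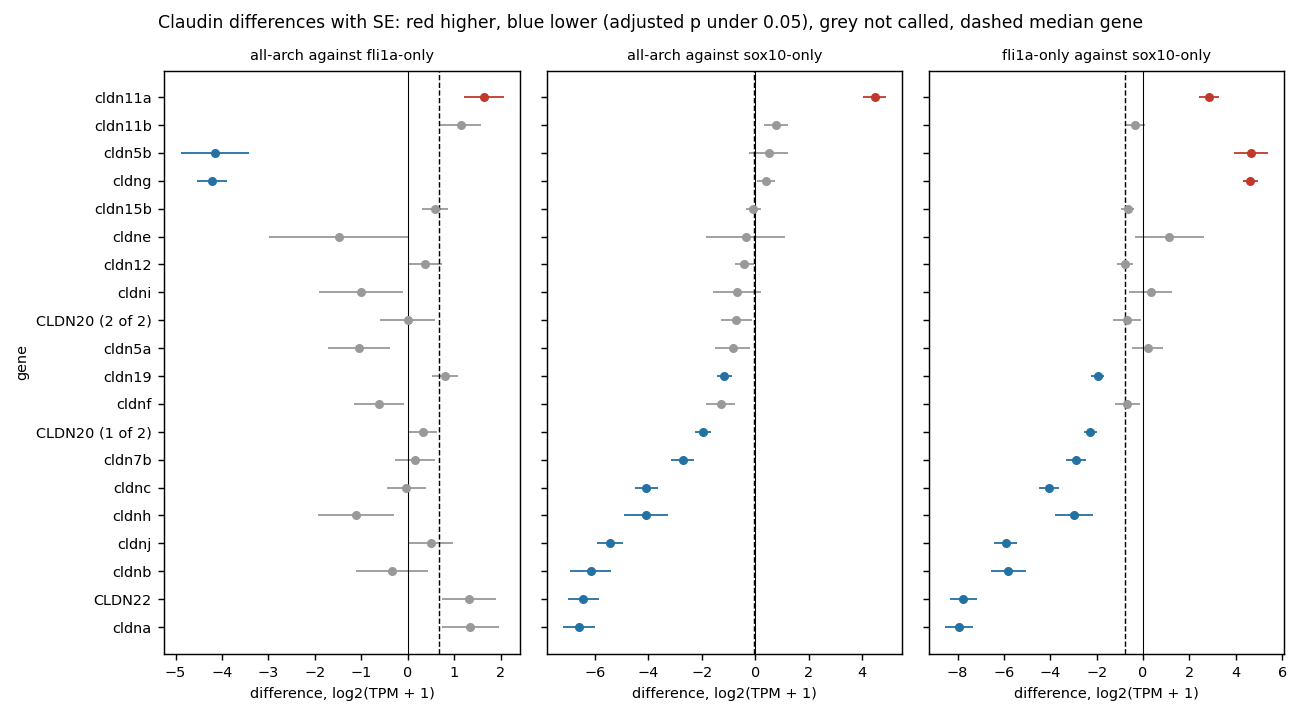
Difference in log2(TPM + 1) between the 3 populations for the 20 tested claudins, with SE bars from the limma fit on 3 libraries a group. Red marks genes called higher in the first-named group, blue lower and grey not called, and the dashed line is the median of all 14270 genes. In the middle panel 9 blue points lie left of the line and cldn11a lies alone on the right.

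Ear markers and some epithelial markers were, like these claudins, higher in sox10-only than in all-arch. The summed level of the 6 ear markers found was 432, 83.5 and 387 TPM in sox10-only, so it too was lowest at 28 hpf, against 16.4 to 21.1 TPM in all-arch and 1.84 to 5.17 TPM in fli1a-only. Of the 4 ear markers tested, 3 were called lower in all-arch than in sox10-only, among them the otolith matrix gene stm, at 209, 35.1 and 159 TPM in sox10-only. The ear markers stm, otomp and hmx2 averaged under 1 TPM over all-arch and fli1a-only together. They passed the expression filter only through sox10-only, where they were high. The epithelial adhesion gene epcam was at 754, 163 and 689 TPM in sox10-only and at 4.71 to 26.8 TPM in all-arch. Of 10 epithelial markers tested, 5 were called lower in all-arch than in sox10-only and 0 higher. Among the 10, cdh1, elf3 and esrp1 also passed the filter only through sox10-only. The summed epithelial markers were at 4368, 5604 and 7905 TPM in sox10-only, so lowest at 20 hpf, where cldnb was highest. In all-arch they were at 1982 to 3318 TPM. Within sox10-only krt4, krt18 and cyt1 were lowest at 20 hpf, while krt5 and krt8, like epcam, were lowest at 28 hpf. Pigment cell markers (7 of 7 tested), neuronal markers (6 of 6) and glial markers (4 of 4) were also called lower in all-arch. Of these, dct, mitfa, xdh, elavl4 and snap25a passed the filter only through sox10-only. The marker counts given here therefore cannot be weighed against the 10% of all genes called lower. Summed pigment markers were at 10137 to 30666 TPM in sox10-only and 15.4 to 826 TPM in all-arch. Neuronal markers were at 827 to 936 TPM against 15.7 to 86.7 TPM, and glial markers at 2968 to 4448 TPM against 62.2 to 270 TPM. By these levels sox10-only held many kinds of cells. The part of ear or other cells in the claudin differences was not tested.

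**Figure D3:**
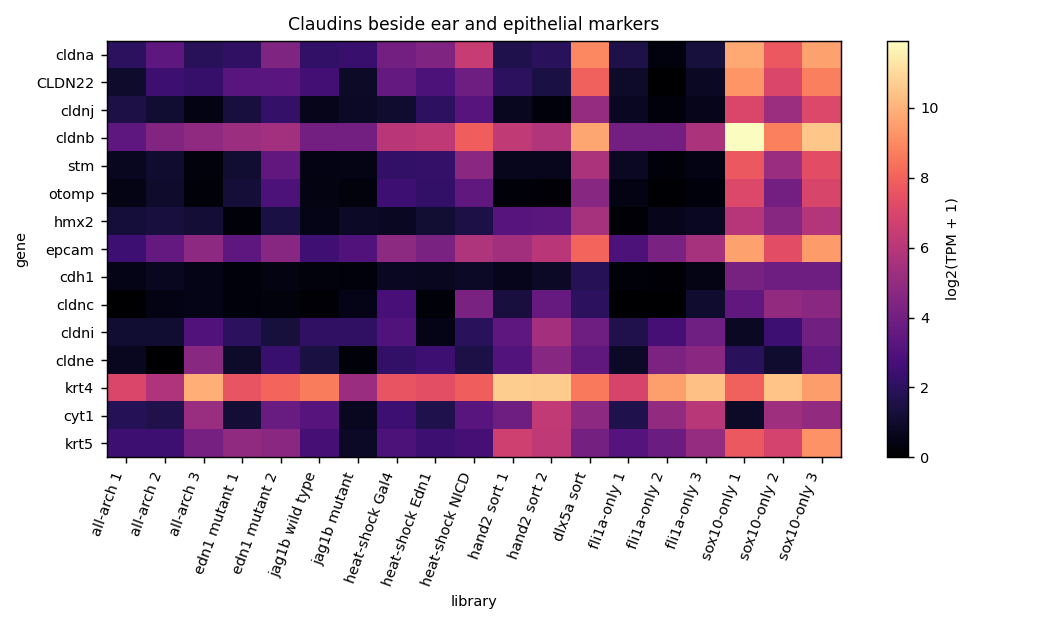
Levels, as log2(TPM + 1) in colour, of claudins beside ear markers (stm, otomp, hmx2), epithelial markers (epcam, cdh1) and keratins (krt4, cyt1, krt5) in the 19 libraries. The markers drawn are only part of their lists. The upper rows brighten together in sox10-only and in the dlx5a sort. Among those not drawn, oc90 was at 20.1 TPM in the dlx5a sort against 13.95 to 19.3 TPM in all-arch. krt8, also not drawn, was at 724 TPM there, below every all-arch library. cldne, cldni, krt4 and cyt1 share bright columns that cut across the groups.

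A pair of claudins, cldn5b and cldng, was highest in fli1a-only. cldn5b is a zebrafish counterpart of mammalian CLDN5, the main seal between endothelial cells. It was at 265, 210.3 and 1029 TPM in fli1a-only, 10.4, 27.8 and 29.9 TPM in all-arch and 5.10, 27.9 and 19.1 TPM in sox10-only. The fli1a-only libraries were all above the rest, with replicate 3 far above the other two, while all-arch and sox10-only overlapped. The mean of 501 ± 458 TPM (SD, n = 3) was 22.1-fold the all-arch mean, with a log2 difference of -4.16 ± 0.73 (SE, limma adjusted p = 0.00915) for all-arch against fli1a-only and 4.66 ± 0.73 (SE, limma adjusted p = 0.00141) for fli1a-only against sox10-only.

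The lettered gene cldng was lower but more restricted. It was at 16.0, 30.2 and 26.9 TPM in fli1a-only, 0.213, 0.704 and 0.129 TPM in all-arch, and listed at 0 in all 3 sox10-only libraries. All-arch was lower than fli1a-only by a log2 difference of -4.21 ± 0.32 (SE, limma adjusted p = 3.47e-05). Outside fli1a-only its highest level was 4.98 TPM, in the heat-shocked Gal4 control, against 1.39 TPM with UASNICD and 0.135 TPM with UASEdn1.
Endothelial markers were also highest in fli1a-only, with a summed level of 615, 319 and 1446 TPM in replicates 1 to 3. They summed to 22.4 to 33.1 TPM in all-arch and 3.82 to 9.42 TPM in sox10-only. Replicate 3 was the highest fli1a-only library in both cldn5b and these markers. cldng was instead highest in replicate 2, where these markers were lowest. Of 9 endothelial markers tested, 7 were called lower in all-arch than in fli1a-only and 9 higher in fli1a-only than in sox10-only. Over all genes 2.89% and 4.06% were called in these directions. The markers cdh5, pecam1, tie1 and erg averaged under 1 TPM over all-arch and sox10-only together. They passed the filter only through fli1a-only, where they were high, so these counts cannot be weighed against those shares. Blood markers were highest in fli1a-only too, summing to 152179, 317466 and 111743 TPM in replicates 1 to 3. They were at 359 to 6745 TPM in all-arch and 275 to 1043 TPM in sox10-only. All 7 blood entries tested were called lower in all-arch than in fli1a-only, where 2.89% of all genes were. Among these entries gata1a also passed the filter only through fli1a-only. In the heat-shocked Gal4 control the blood markers summed to 3975 TPM and the endothelial markers to 17.6 TPM. The part of endothelial or blood cells in the 2 claudin differences was not tested.

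Among the 3 populations cldn11a was highest in the arch cells. Mammalian CLDN11 is known from the myelin of the central nervous system, Sertoli cells and the inner ear. cldn11a was at 227, 179.5 and 312 TPM in all-arch, 82.2, 47.7 and 103 TPM in fli1a-only and 5.18, 11.7 and 13.9 TPM in sox10-only. The 3 groups did not overlap, and all-arch was the highest. The mean of 239 ± 67.2 TPM (SD, n = 3) was 23.3-fold the sox10-only mean, with a log2 difference of 4.47 ± 0.43 (SE, limma adjusted p = 2.33e-05). fli1a-only was higher than sox10-only by 2.83 ± 0.43 (SE, limma adjusted p = 0.000496).

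Against fli1a-only the cldn11a difference was smaller and less firm. The fitted value was 1.64 ± 0.43 (SE, limma adjusted p = 0.0413), and the median of all genes in that comparison was itself 0.68 higher in all-arch, so cldn11a lay 0.97 above the median gene. The call was lost in 9 of 14 alternatives, with adjusted p up to 0.180, among them the removal of any 1 all-arch library or of fli1a-only replicate 1 or 2, median-of-ratios and quantile scaling, the removal of globin genes and the absence of a filter. The direction was the same in all 14.

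In all, 1 of 20 tested claudins was called higher in all-arch than in fli1a-only (background 4.16% of all genes) and 2 lower (2.89%). Scaled by median of ratios, the claudin counts became 0 and 3, beside 1.43% and 7.17% of all genes. Same-numbered libraries of the 3 populations deviated together, and with the replicate number as a block the counts were 3 higher and 4 lower, beside 44.5% and 6.16% of all genes. The block added cldn11b (1.14, limma adjusted p = 0.0114) and cldn19 (0.80, adjusted p = 0.0183) as higher, and cldn5a (-1.05, adjusted p = 0.0297) and cldni (-1.01, adjusted p = 0.0138) as lower.
cldn11a was the only claudin of 20 called higher in all-arch than in sox10-only, where 3.4% of all genes were called. For fli1a-only against sox10-only, 3 of 20 were called higher, namely cldn5b, cldng and cldn11a, with 4.06% of all genes called in that direction. The replicate block added cldn12 and cldn15b to the 9 called lower there, and 53.6% of all genes were then called lower.

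**Figure D4:**
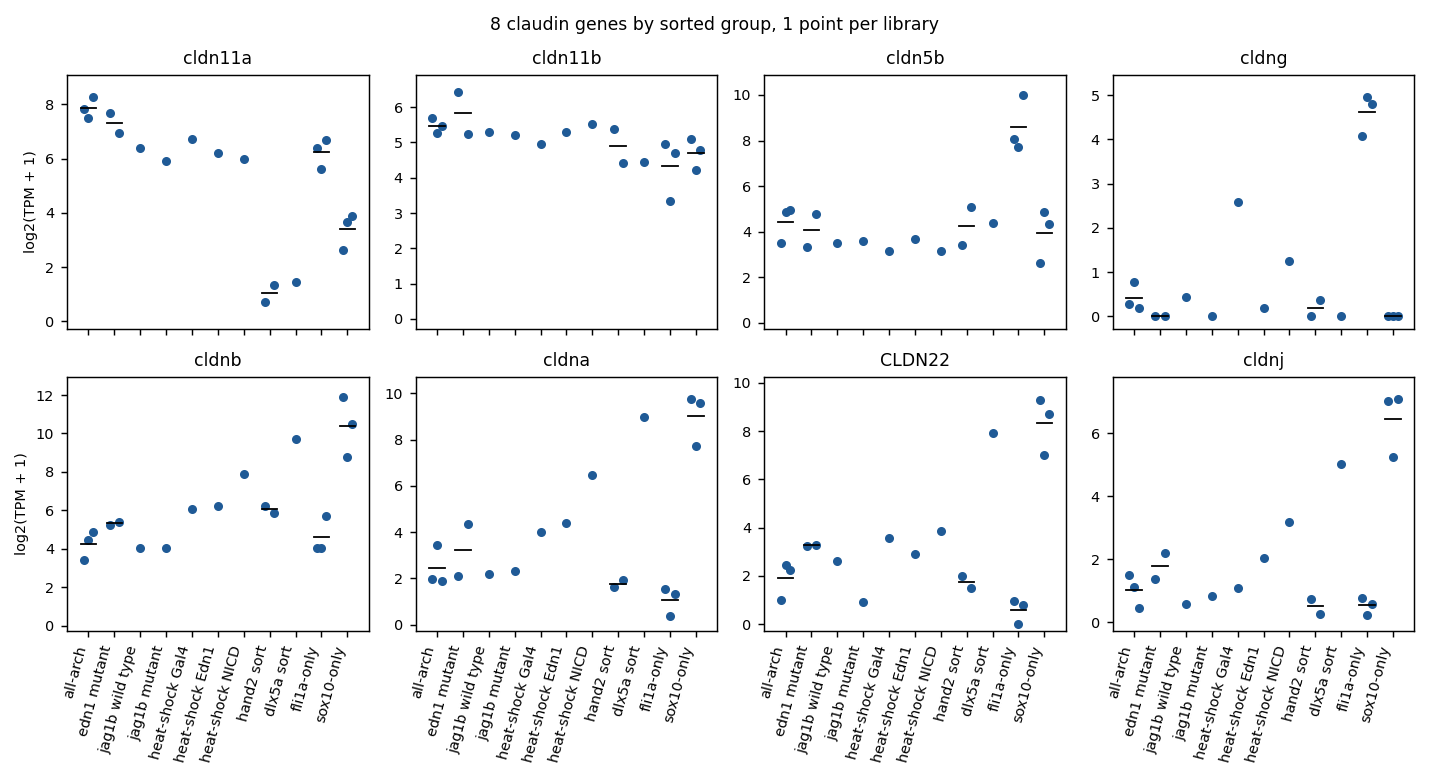
Level of 8 claudins as log2(TPM + 1), with 1 point per library and a bar at the mean of groups with more than 1 library. cldn11a is low in the hand2 and dlx5a sorts and in sox10-only, while cldn11b, at 9.15 to 85.9 TPM over the libraries, does not share that pattern. cldn5b and cldng are highest in fli1a-only, and the lower 4 genes are highest in sox10-only and the dlx5a sort.

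The paralogue cldn11b did not share this pattern. It was at 50.7, 37.8 and 42.9 TPM in all-arch, 30.2, 9.15 and 25.1 TPM in fli1a-only and 33.3, 17.6 and 26.4 TPM in sox10-only, and was called in no comparison without the block. The broadly present members were similar. cldn5a, the second CLDN5 counterpart, was at 17.6 to 51.4 TPM in all-arch, 38.1 to 172 TPM in fli1a-only and 29.8 to 127 TPM in sox10-only, with overlap between all 3 groups. cldn12 was between 1.07 and 5.39 TPM and cldn15b between 0.426 and 2.31 TPM over the 19 libraries. Levels of close copies such as cldn5a and cldn5b, cldn11a and cldn11b, and the numbered copies of CLDN20 and CLDN23 are uncertain to the extent that reads fitting both were divided between them, which the sources used here do not describe.

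Surface-skin claudins varied widely within groups. cldne, known in zebrafish from the outer enveloping layer and periderm, was at 0.651, 0 and 24.3 TPM in all-arch, 0.801, 18.6 and 25.3 TPM in fli1a-only, 7.49 and 24.2 TPM in the hand2 sorts and 2.77, 1.07 and 10.3 TPM in sox10-only. The groups overlapped, and 1 or 2 libraries of each held most of the level. The keratin gene cyt1, an epithelial marker, was at 2.43, 2.19 and 34.4 TPM in all-arch and 2.02, 29.8 and 64.3 TPM in fli1a-only, so it was high in the same libraries of these 2 groups. In sox10-only it was at 0.890, 38.4 and 29.8 TPM, and there replicate 2 was high in cyt1 and low in cldne. The part of skin cells in these levels was not tested. cldni was highest in hand2 sort replicate 2, at 43.8 TPM, and below 15 TPM elsewhere. CLDN23 (1 of 3) was at 7.51 and 6.28 TPM in the hand2 sorts and at most 2.96 TPM in any other library.

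Several of these genes lie next to each other in the genome. In the reference annotation, whose assembly is not the one named for the files and is used here only for gene order, cldnj, cldne, cldnf and cldna followed each other with 0 coding genes between them. cldnh, cldnc and cldnb formed a second run, and cldn10b and cldn10l2 a pair. The second run held 3 genes all called higher in sox10-only. In the first run cldnj and cldna were called and the 2 genes between them were not: cldne differed by -0.36 ± 1.49 (SE) and cldnf by -1.29 ± 0.54 (SE) for all-arch against sox10-only. cldnf was at 6.33, 1.01 and 2.25 TPM in sox10-only and 0.237, 0 and 1.63 TPM in all-arch, with overlap. The cldn10 pair stayed below 1 TPM in every library.

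Within the arches, the clearest claudin difference was the near absence of cldn11a from the hand2 and dlx5a sorts, whose marker genes are active in ventral and intermediate parts of the arches. A second limma fit, over these sorts, the edn1 mutants and all-arch, covered 13206 genes, of which 19 were claudins, and the lone dlx5a library was assumed to vary like the other groups. cldn11a was at 0.660 and 1.51 TPM in the hand2 sorts and 1.70 TPM in the dlx5a sort, against 179.5 to 312 TPM in all-arch. The log2 difference from all-arch was -6.84 ± 0.36 (SE, limma adjusted p = 0.00220) in the hand2 sort and -6.44 ± 0.46 (SE, limma adjusted p = 0.0164) in the dlx5a sort. The hand2 call held in all 12 alternatives, and the dlx5a call was lost without all-arch replicate 1 or 3, with adjusted p up to 0.0599.

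The levels of cldn11a followed the reporters as well as the arch domain. It was at 59.3 to 312 TPM in the 10 libraries sorted on both fli1a and sox10, at 47.7 to 103 TPM in fli1a-only and at 0.660 to 13.9 TPM in the 6 libraries whose titles do not name fli1a. The fli1a gene itself was at 22.8 to 32.6 TPM in the hand2 and dlx5a sorts and 41.6 to 44.5 TPM in all-arch. The endothelial gene kdrl, a receptor for vascular growth factor, was at 0.104 TPM in the dlx5a sort and 0.554 and 0.940 TPM in the hand2 sorts, against 5.95 to 7.56 TPM in all-arch. Not all endothelial markers shared this: clec14a was at 17.96 and 32.7 TPM in the hand2 sorts against 4.46 to 9.54 TPM in all-arch, and the summed list at 28.2 and 52.6 TPM against 22.4 to 33.1 TPM. Ventral domain and the absence of a fli1a gate cannot be told apart in these libraries.

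In the hand2 sorts cldn11a was the only claudin called lower, 1 of 19, where 1.26% of all genes were called. None of 19 was called higher by limma, where the background was 0.295%, and 5 had an unadjusted p under 0.05. No share over all genes at the unadjusted threshold is at hand, so that count cannot be weighed. These 5 were cldnb, cldnc, cldnf, cldni and CLDN23 (1 of 3). Over the other libraries of the fit cldnc, cldnf and CLDN23 (1 of 3) averaged under 1 TPM. They passed the expression filter only through the hand2 sorts, where they were high. cldnb was at 75.1 and 57.1 TPM in the hand2 sorts against 9.80 to 28.0 TPM in all-arch, without overlap (log2 difference 1.81 ± 0.42, SE, limma adjusted p = 0.122). cldni was at 9.65 and 43.8 TPM against 1.11, 1.14 and 7.39 TPM, also without overlap (2.70 ± 0.81, SE, limma adjusted p = 0.228). Of 8 epithelial markers tested, 1 was called higher in the hand2 sorts and 0 lower. That marker was krt5, at 100.3 and 73.3 TPM against 4.40 to 16.5 TPM in all-arch, while krt8 was at 667 and 571 TPM against 899.7 to 1102 TPM. The share of skin cells in these differences was not tested.

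The dlx5a library carried the same leading claudins as sox10-only. cldnb was at 839 TPM, cldna at 501 TPM, CLDN22 at 244 TPM and cldnj at 31.9 TPM, each above every all-arch library. The first 3 levels lay within the range of the sox10-only libraries and cldnj lay just below it. Of 19 tested claudins, 4 were called higher than in all-arch, where 0.0757% of all genes were called, and 1 lower, where the background was 0.318%. The 4 were CLDN22 (6.03 ± 0.58, SE, limma adjusted p = 0.0224), cldnb (5.47 ± 0.53, adjusted p = 0.0231), cldn7b (2.53 ± 0.32, adjusted p = 0.0362) and cldnj (4.01 ± 0.52, adjusted p = 0.0394).
cldna differed most, by 6.55 ± 0.94 (SE), but missed the threshold with a limma adjusted p of 0.0534. cldn7b passed the expression filter only through the dlx5a library, at 6.48 TPM there and at most 0.467 TPM in the other libraries of the fit. The count called higher thus includes a gene admitted by the library where it was high. The median claudin difference was 0.77, beside -0.38 over all genes. These calls rest on 1 dlx5a library: leaving out all-arch replicate 1 or 3 left 0 claudins and 0 genes of the whole table called higher, and leaving out replicate 2 left 1 claudin among 2 genes.

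Some ear markers were also high in the dlx5a library. The summed level of the ear list was 138 TPM, against 16.4 to 21.1 TPM in all-arch and 53.2 and 55.4 TPM in the hand2 sorts. There stm was at 49.3 TPM, otomp, another otolith protein gene, at 23.8 TPM and hmx2, an ear transcription factor, at 44.9 TPM, against at most 1.03, 1.01 and 1.62 TPM in all-arch. In the hand2 sorts stm was at 0.579 and 0.589 TPM and otomp at 0.173 and 0.125 TPM, while oc90, which accounted for much of their ear sum, was at 46.5 and 43.3 TPM. In the dlx5a library oc90 was at 20.1 TPM, against 13.95 to 19.3 TPM in all-arch. epcam was at 272 TPM in the dlx5a library and 40.9 and 66.4 TPM in the hand2 sorts. Other epithelial markers differed from epcam. Their summed list, at 2839 TPM in the dlx5a library, lay within the all-arch range of 1982 to 3318 TPM. krt8, at 724 TPM, lay below every all-arch library. The part of ear cells in the claudin levels of the dlx5a sort was not tested.

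Loss of edn1 changed no claudin past the threshold. None of 19 was called higher and none lower by limma, where the backgrounds over all genes were 0% and 0.00757%, and the smallest adjusted p was 0.999864. At an unadjusted p under 0.05 there were 2 higher and 0 lower. No share over all genes at that threshold is at hand, so these counts cannot be weighed. The 2 higher were cldnb, at 37.3 and 41.6 TPM in the mutants against 9.80 to 28.0 TPM in all-arch, and CLDN22, at 8.53 and 8.65 TPM against 1.02 to 4.51 TPM. cldn11a was at 204 and 123 TPM in the mutants, overlapping all-arch. With 2 mutant libraries, the absence of a call does not show that levels were equal.

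The jag1b and heat-shock comparisons had 1 library on each side, so no test was possible and differences have no replicate check. A gene counted as changed in size when the log2 difference was at least 1 and the higher library had at least 10 TPM. Between jag1b mutant and wild type, 5 claudins reached 10 TPM, and 0 passed in either direction, with 0.192% of all such genes passing upward and 0.7% downward. cldn11a was at 59.3 TPM in the mutant and 83.8 TPM in the wild type, and cldnb was at 15.2 and 15.3 TPM.

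With UASEdn1, 1 of 7 claudins passed upward (background 2.42%) and 0 downward (1.29%). That gene was cldn5a, at 68.1 TPM against 26.4 TPM in the Gal4 control, a log2 difference of 1.34. Other arch libraries without the transgene spanned 16.0 to 51.4 TPM for cldn5a, so the UASEdn1 library was above all of them. cldn5b was at 11.7 against 7.84 TPM.

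With UASNICD, 3 of 7 claudins passed upward (background 5.04%) and 0 downward (2.09%). cldna was at 86.8 TPM against 15.1 TPM in the Gal4 control, cldnb at 238 against 66.6 TPM and cldnc at 17.4 against 5.62 TPM. The log2 differences were 2.44, 1.82 and 1.48. Below the 10 TPM level, cldnj was at 8.03 against 1.098 TPM and CLDN20 (1 of 2) at 7.96 against 0.223 TPM. CLDN22 moved little, at 13.7 against 10.8 TPM, and cldn11a was at 63.2 against 104 TPM.
Some ear and epithelial markers were higher in this library and others lower. stm was at 25.7 against 3.51 TPM, otomp at 10.2 against 4.68 TPM and epcam at 53.5 against 26.4 TPM, and the summed ear markers at 50.4 against 26.4 TPM. The ear marker oc90 was at 12.6 against 17.5 TPM, and the summed epithelial markers, mostly krt8 and krt18, at 2439 against 2531 TPM. The sox10 gene itself was at 304 TPM against 64.5 TPM. The part of ear or other cells in the claudin differences was not tested. In the Gal4 control, cldna at 15.1 TPM and cldnb at 66.6 TPM were themselves above the 3 all-arch libraries.

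**Figure D5:**
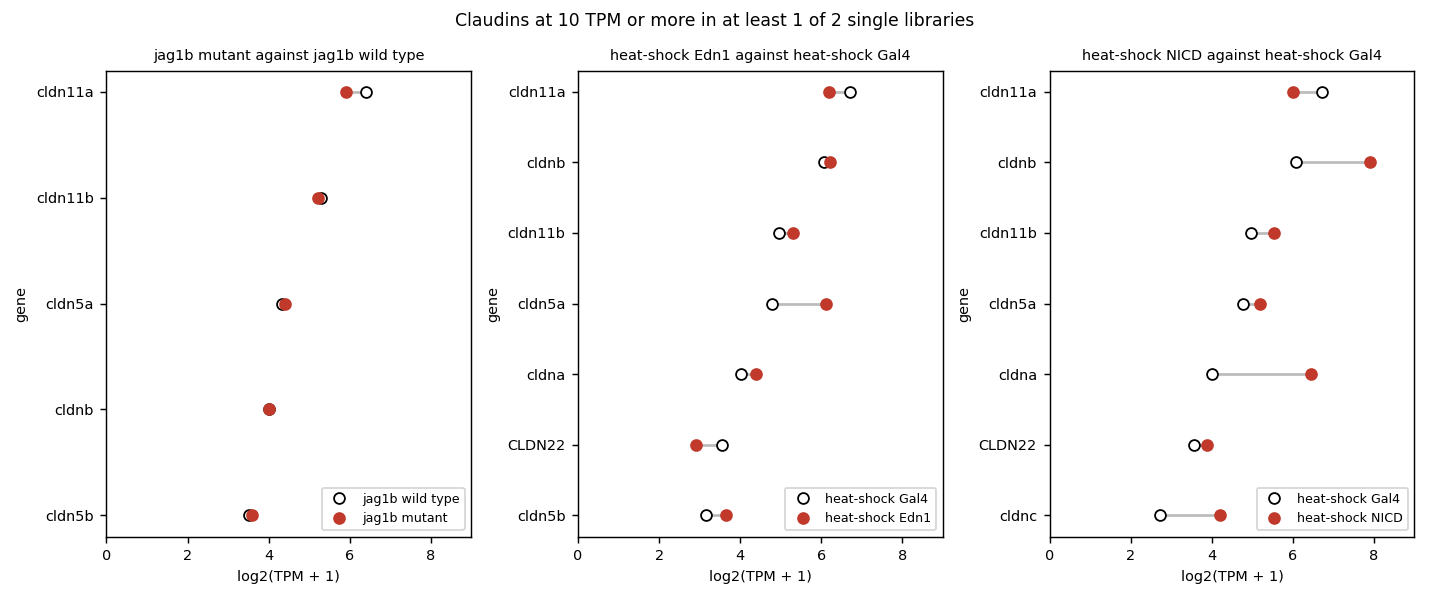
Levels, as log2(TPM + 1), of the claudins at 10 TPM or more in at least 1 library of each single-library comparison, with the control as an open circle and the mutant or transgenic library in red. In the right panel cldna, cldnb and cldnc lie furthest from their controls, and in the middle panel cldn5a does.

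Claudins work with other junction proteins, and 51 of 55 listed partners were in the table. The list also held 9 regulator genes, such as elf3 and tfap2a. Some of its genes, among them epcam, cdh1 and elf3, were also epithelial markers above, so those calls are not separate results. Of the 33 tested, 1 was called higher and 12 lower in all-arch than in sox10-only, where the backgrounds were 3.4% and 10%. The share called lower was above the background, in part through the expression filter, while the median of -0.09 lay near the -0.04 over all genes. A subset of the list moved. In the group of other membrane proteins of the tight junction 7 of 13 were lower: the occludin gene oclna, the tricellular junction genes marveld2b, lsr, ildr1a and ildr1b, and the junctional adhesion molecules f11r.1 and jam3a. All of these except f11r.1 averaged under 1 TPM in both all-arch and fli1a-only, so they passed the filter only through sox10-only. Some genes named below, such as cdh1 and crb3b, did so too. The counts called lower thus include genes admitted by the group where they were high, and cannot be weighed against the background. oclna averaged 0.180 TPM in all-arch and 3.07 TPM in sox10-only (-1.69 ± 0.36, SE, limma adjusted p = 0.00537), and lsr 0.285 against 5.67 TPM (-2.23 ± 0.38, adjusted p = 0.00120).
Of the scaffold proteins beneath the junction 1 of 7 was lower, tjp2a, and of the polarity genes 1 of 3, crb3b. Among adherens junction genes the epithelial cadherin cdh1 (0.508 against 14.8 TPM) and epcam were lower and cdh11, a cadherin of mesenchymal cells, was higher (97.4 against 17.2 TPM, log2 difference 2.46 ± 0.40, SE, limma adjusted p = 0.000776). The epithelial transcription factor gene elf3 was at 0.683 TPM in all-arch and 31.3 TPM in sox10-only.

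In fli1a-only against sox10-only, 3 partners were called higher and 13 lower, with 4.06% and 24.4% of all genes called in those directions. The limit of the filter given above applies to the lower calls here too. It also applies to the calls of cdh5 in this comparison and the next, since cdh5 passed the filter only through fli1a-only. The higher genes were the endothelial cadherin cdh5 (20.5 against 0.0987 TPM), the cingulin-like scaffold gene cgnl1 (15.0 against 3.90 TPM) and ildr2 (10.8 against 3.36 TPM). In all-arch against fli1a-only, 2 were higher and 2 lower, beside 4.16% and 2.89% of all genes. The higher were cdh11 and the transcription factor gene tfap2a. The lower were cdh5 and the endothelial junctional adhesion gene jam2a (1.97 against 10.9 TPM). Of the 24 partners tested in the ventral sorts and edn1 mutants, 0 were called higher and 3 lower in the hand2 sorts. There 0.295% and 1.26% of all genes were called, so the share called lower was above the background. The counts were 0 and 1 in the dlx5a sort, beside 0.0757% and 0.318% of all genes. In the edn1 mutants they were 0 and 0, beside 0% and 0.00757%. In the dlx5a library few genes of any kind were called higher, and without a call f11r.1 was at 17.6 TPM there against 2.78 to 4.03 TPM in all-arch.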

How the data were processed

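RNA sequencing of 19 libraries of sorted zebrafish cells was analysed from the deposited gene table. Per the labels' protocols, RNA was purified with RNeasy Micro, amplified with SMARTer and prepared with Kapa Hyper reagents. TopHat2, Partek and the build GRCz10 stand in the submitters' processing notes, without versions. The authors deposited TPM, and each column summed to about 93168.2, so every value was multiplied by 10.7333 to give column totals of 1000000. No depth, and so no counting interval, can be had from TPM.

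Tests used limma 3.58.1 (trend and robust empirical Bayes; R 4.3.3) on log2 values after adding 1 TPM, keeping genes with a mean of at least 1 TPM over the libraries of a fit, with Benjamini-Hochberg adjustment over all genes and a threshold of 0.05. The method was tested on simulated data. The labels do not say whether replicates came from separate clutches, and the spread behind each p-value is that between libraries, which may be technical. Replicate numbers come from the titles, and over 14270 genes same-numbered libraries of all-arch, fli1a-only and sox10-only had deviations from their group means that correlated at 0.316 to 0.739, so a fit with the number as a block is given where it changes a call. Alternatives were the deposited scale, pseudocounts of 0.1 and 5, no filter, other scalings, globin genes left out, the replicate block and leaving out each library.

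Named genes were those called or past the rule of size, the 10 that changed most per direction between the 3 populations, the 5 highest in each group, neighbouring members and called junction partners. The members, lists and rules were chosen with earlier results of these data known. Of the 35 claudins 32 were matched to symbols in a reference gene table of another assembly, used for names and gene order only. Sequences were not used here.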

Additional observations from a re-analysis of the deposited data

How the results depend on the processing

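For all-arch against fli1a-only, the 1 claudin called higher became 0 without a filter, under median-of-ratios or quantile scaling and with globin genes left out, ranged from 0 to 1 over left-out libraries, and became 3 with the replicate block. The 2 called lower became 4 with the block (6.16% of all genes) and 1 on the deposited scale (2.94%). On that scale 5 claudins of 9 tested were called lower in all-arch than in sox10-only, beside 6.93% of all genes. For fli1a-only against sox10-only it was also 5 of 9, beside 32.8% of all genes. In the hand2 sorts 2 pairs of numbers do not establish pairing. There the replicate block, fitted without the dlx5a library, gave 3 of 18 tested claudins higher in place of 0, beside 0.707% of all genes. Leaving out any 1 all-arch library left 0 higher. Leaving out a hand2 library leaves 1 in that group, so no count is given for it. In the dlx5a sort, a pseudocount of 0.1 left 2 higher, and left-out libraries gave 0 to 1 higher and 0 to 1 lower. With a minimum of 1 TPM the single-library counts became 1 higher and 2 lower for jag1b, 3 lower for UASEdn1, and 6 higher and 3 lower for UASNICD, and the deposited scale left 0 higher for UASEdn1 and 1 for UASNICD. No share over all genes is at hand for these single-library settings, so their counts cannot be weighed. The block changed no other call beyond those given with the results. Of the 31 named differences none reversed: over the alternatives 375 values stayed on their side of the threshold and 38 lost the call. An alternative in which a gene fell below the filter was counted in neither number. For all-arch against sox10-only, CLDN20 (1 of 2) thus had 12 alternatives where cldnb had 15. The causes of these changes were not tested. Unknown depth limits what can be said of members near 0.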

Other observations

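Another 9 genes of the table carry a claudin name without matching the rule on names, 6 of them only in the reference gene table. The gene listed as zgc:112437, cldn29 in that table, was at 169, 281 and 238 TPM in sox10-only and at 1.68, 10.7 and 2.04 TPM in all-arch, with no overlap (log2 difference -5.63, limma adjusted p = 2.30e-05). Unlike cldnb, it was highest in the 28 hpf library. It was at 33.4 TPM in the dlx5a sort. The gene listed as zgc:136892, cldn30 in that table, was at 28.2, 16.3 and 28.1 TPM in sox10-only, and all-arch was lower (-1.78, limma adjusted p = 0.0309). cldnd, left out by the rule, was at 3.04, 7.81 and 2.77 TPM in sox10-only and lower in all-arch (-1.55, limma adjusted p = 0.0144). It averaged 0.811 TPM in all-arch and 0.179 TPM in fli1a-only, so it passed the expression filter only through sox10-only, where it was high.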
